A study of Bos taurus with 15 samples.

Results

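Cells copy their DNA in S phase and divide in mitosis, and the genes of these steps are switched on in waves, so that their messenger RNAs serve as a readout of how many cells of a tissue are cycling. E2F factors drive the early wave of replication genes, and the MuvB complex with B-MYB and FOXM1 drives the late wave of cyclins, kinases and spindle proteins. In resting cells and in cells held back by CDK inhibitors such as p21 both waves are repressed. Meniscal fibrochondrocytes are slowly dividing matrix producers in the adult knee, and they divide readily when they are expanded in culture. The 40 cell cycle and proliferation genes described here were chosen by name from a list: 2 genes of G1 control, 10 of DNA replication, 6 of the cyclins, CDK1 and their partners, 6 mitotic kinases and checkpoint genes, 2 of the ubiquitin ligase of anaphase, 10 of the centromere, spindle and cytokinesis, and 4 of chromatin and the nuclear lamina. All 40 were found among 38001 bovine gene rows, 1 row each, and all 40 had enough counts to be tested, among 11834 genes that did.

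The cells were bovine meniscal fibrochondrocytes, sampled at day 28 after 3 days in growth medium with 10% fetal bovine serum and 25 days in chondrogenic medium with ascorbic acid (50 µg/ml), dexamethasone (1e-07 M) and TGF-β3 (10 ng/ml). All groups shared this culture. Tissue cast in a mold either had post anchors (anchored) or lacked them (unanchored), and the middle of each kind and its post region were sequenced apart, so that 4 groups were molded. Blobs, which were cells set in collagen and given no mold, formed the fifth group. Each group had 3 libraries, 15 in all, and the labels do not say whether these came from separate tissues or animals, so that a p-value here weighs nothing more than how far these libraries spread, and that spread may be technical. Values are CPM, counts scaled to a common library size after TMM scaling, a method that corrects library totals for composition. Levels of cell-type markers and of AFP are CPM of a library's gene counts without TMM scaling. Because the libraries read mainly the 3' ends of transcripts, values are not divided by length. Levels are thus compared between samples and not between genes.

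Library totals ran from 2060781 to 7415701 counts. The 3 shallowest libraries were no-mold libraries 1 and 3 and anchored middle library 2. All 12 defining genes of meniscal fibrochondrocytes that were looked for, among them COL1A1, COL2A1, ACAN and SOX9, were measured in enough counts to be tested. Of the markers of other cells, 0 of 7 endothelial, 1 of 8 leukocyte and macrophage, 2 of 6 red blood cell, 0 of 6 skeletal muscle, 1 of 4 Schwann and neural and 3 of 5 mural genes had enough counts. ITGAM, ALAS2 and MYOD1 were at 0 in every library, PECAM1 had 10 counts and PTPRC 25 over all 15. The summed level of the endothelial markers was 0.90 to 1.88 CPM in the no-mold libraries and 0.87 to 2.34 in the molded ones. For the leukocyte and macrophage markers it was 4.7 to 9.22 and 5.05 to 8.77. The Schwann and neural sum was much higher, 409 to 436 and 333 to 437, with S100B at 30403.5 counts over all libraries. The mural sum was 70.0 to 96.0 and 48.2 to 105, with CSPG4 at 6405 counts. Which cells these 2 genes came from was not tested. The summed level of the red blood cell markers was 3.29 to 7.52 and 0.895 to 6.75. It included HBM, a hemoglobin gene with 52 counts over all libraries, at a mean of 3.09 CPM without a mold and between 0.235 and 0.90 in the molded groups.

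Messenger RNA of every cell cycle gene was found in every library. The lowest count was 7, for CENPE in no-mold library 3, and the totals over 15 libraries ran from 391 counts for BUB1 to 37311.5 for CCND1. MKI67, the gene of the Ki-67 antigen and a common marker of cycling cells, had 512 counts in all and 9 to 63 in a library. TOP2A, the topoisomerase that untangles DNA in mitosis, lay between 22.3 and 30.6 CPM in all 15 libraries. The highest library exceeded the lowest by a median of 1.84 times over the 40 genes, against 1.85 times over all genes tested, from 1.32 times for TYMS (thymidylate synthase) to 5.12 times for CDKN1A (p21). In 22 of the 40 genes no count was shared between genes, and in 8 of them values with reads split among several genes held more than 50% of the counts: TYMS, CCNA2, CCNB1, CENPA, CENPF, STMN1, TOP2A and HMGB2. Levels of these 8 are less certain.

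**Figure D1:**
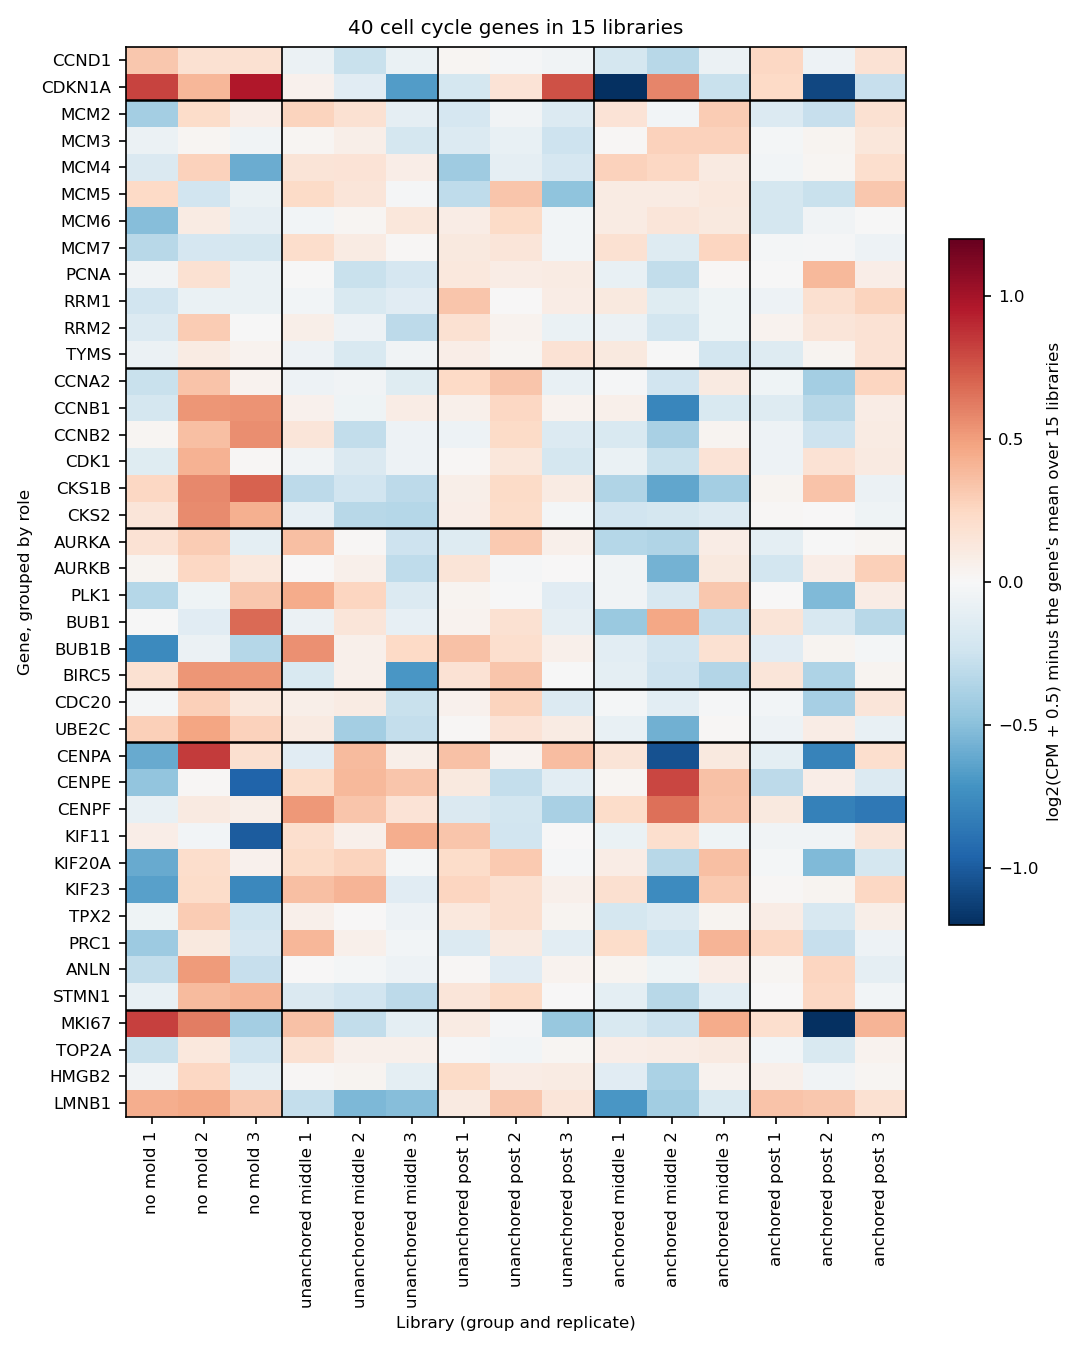
Level of each of the 40 genes (rows, divided by role) in each of the 15 libraries (columns, divided by group), as log2(CPM + 0.5) minus the gene's mean over the libraries. Red is above and blue below the mean. CKS1B, CKS2 and LMNB1 are red in no mold and blue in both middle groups, and most other rows show no block of 1 colour by group.

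The genes did not shift as one block by group, and much of their variation lay between libraries of the same group, where many of them moved together. No-mold library 2 had a median deviation of 0.25 on the log2 scale from each gene's mean, the highest of the 15, and was the highest library for 12 of the 40 genes, while 5.84% of all genes had their highest value there. It stood above both other no-mold libraries in 29 of the 40 genes, against 31.6% of all genes. Anchored middle library 2 had the lowest median deviation, -0.23, and stood below both partners in 26 of the 40 genes, against 41.4% of all genes. Over all genes the median deviation of the 2 libraries was 0.01 in each case. Unanchored post libraries 2 (0.14) and 1 (0.08), anchored middle library 3 (0.08) and anchored post library 3 (0.08) were on the high side, and unanchored middle library 3 (-0.10) and no-mold library 1 (-0.08) on the low side. Each molded group thus held libraries on both sides or close to 0. No-mold library 2 was also the deepest of its group, with 4466562 counts against 2060781 and 2128257, and anchored middle library 2 the shallowest of its group. The part of depth in these deviations was not tested.

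**Figure D2:**
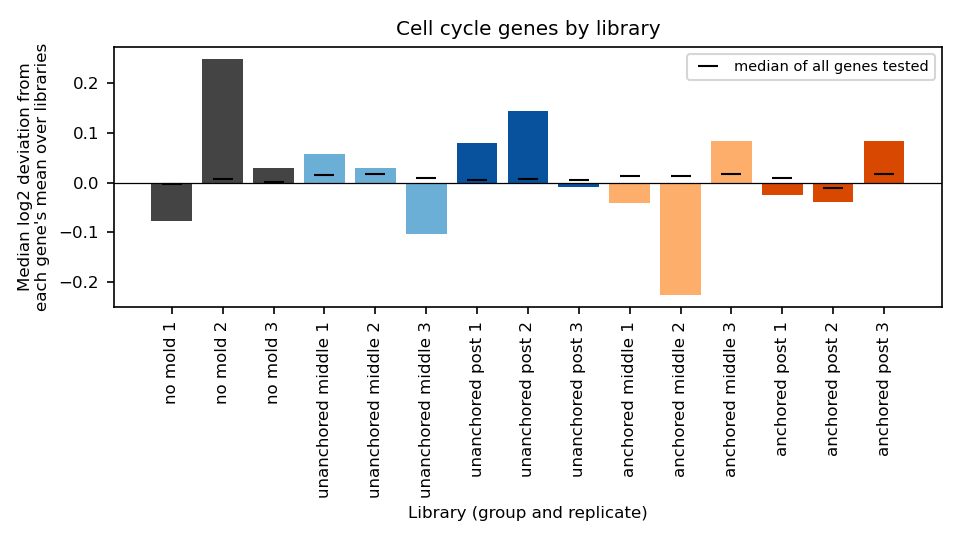
Median over the 40 cell cycle genes of the log2 deviation from each gene's mean over the 15 libraries (bars, coloured by group), with the same median over all genes tested (black dashes). The bars run from -0.23 in anchored middle library 2 to 0.25 in no-mold library 2, while the dashes stay near 0.

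Molded tissue was set against unmolded tissue to ask whether casting went with a change in these genes. Most of them did not pass the test. Against no mold, 8 fell and 1 rose in the mean of the 4 molded groups, and 31 did not pass. In all, 22.5% of the 40 genes were called, where 16% of all 11834 genes were (8.04% higher and 7.91% lower; edgeR quasi-likelihood test, two-sided, Benjamini-Hochberg adjusted p below 0.05 over all genes). The median log2 fold change was -0.08 over the 40 genes and 0.00 over all genes tested, and the median size without sign was 0.18 and 0.20. The genes that fell came from several roles: CKS1B, CKS2, UBE2C, BIRC5, LMNB1, STMN1, CCND1 and CDKN1A. MCM7 rose. In bulk RNA, fewer cycling cells and less RNA per cycling cell cannot be told apart.

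CKS1B and CKS2 encode small subunits that dock cyclin-dependent kinases onto their substrates. CKS1B (ENSBTAG00000024476) stood at 40, 50.3 and 55.1 CPM in the no-mold libraries. It stood at 26.8, 28.6 and 26.9 in unanchored middle and at 25.9, 21.6 and 25.1 in anchored middle. It stood at 35.3, 39.4 and 36.0 in unanchored post and at 34.3, 42.6 and 31.9 in anchored post. All 6 middle libraries were thus below all 6 post libraries, which were below the no-mold libraries except that anchored post library 2 exceeded no-mold library 1. Its log2 fold change, molded against no mold, was -0.66 (SE 0.104, edgeR adjusted p = 0.000148). CKS2 (ENSBTAG00000001938) stood at 92.7, 124 and 113 CPM without a mold. It ran from 65.8 to 78.2 in the 6 middle libraries and from 80.4 to 97.1 in the 6 post libraries. Again every middle library was below every post library, and of the molded libraries unanchored post library 2 alone reached the range of the no-mold libraries. CKS2 fell by 0.50 in log2 units (SE 0.0859, adjusted p = 0.000348 by edgeR).

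The cyclins and CDK1, which these subunits serve, did not pass. CDK1, the kinase that starts mitosis, had 25.5 ± 5.35 CPM without a mold (SD, n = 3) and 22.0 ± 1.07 to 24.8 ± 2.15 in the molded groups. Its log2 fold change was -0.19 (95% interval -0.45 to 0.08, edgeR adjusted p = 0.355). Cyclin B is the partner of CDK1 in mitosis. CCNB1 and CCNB2, which encode it, had log2 fold changes of -0.41 each (edgeR adjusted p = 0.0797 and 0.0895), and CCNA2 (cyclin A, of S phase and G2) had -0.11 (edgeR adjusted p = 0.727). CCNB1 stood at 15.2, 25.6 and 25.8 CPM without a mold, so that library 1 of that group lay within the range of the molded libraries, 10.1 to 21.1.

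UBE2C is the E2 enzyme with which the anaphase-promoting complex marks cyclin B for destruction, and CDC20 is the activator of that complex. UBE2C (ENSBTAG00000016746) stood at 68.4, 77.7 and 68.0 CPM in the no-mold libraries and between 37.4 and 62.8 in the molded ones. It was 1 of the 2 genes of the 40 whose no-mold libraries did not overlap the 12 molded libraries, and the gene whose no-mold libraries were all higher; 4.29% of all genes had that pattern. UBE2C fell by 0.43 in log2 units (SE 0.111, adjusted p = 0.0101 by edgeR). CDC20 had a log2 fold change of -0.18 and did not pass (SE 0.126, edgeR adjusted p = 0.365).

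Among the 6 mitotic kinases and checkpoint genes, 1 fell and 5 did not pass. BIRC5 (ENSBTAG00000013573) encodes survivin, a subunit of the chromosomal passenger complex. It stood at 17.2, 21.9 and 21.8 CPM without a mold and between 9.07 and 19.1 in the molded libraries, so that the groups overlapped at no-mold library 1. It fell by 0.54 in log2 units (SE 0.158, adjusted p = 0.0215 by edgeR). AURKB, the kinase of the same complex, had a log2 fold change of -0.17 (adjusted p = 0.549 by edgeR), AURKA, the kinase of the spindle poles, -0.18 (0.542), and PLK1, which acts at several steps of mitosis, 0.05 (0.908). The spindle checkpoint genes BUB1 and BUB1B had log2 fold changes of opposite sign, -0.23 (SE 0.248, edgeR adjusted p = 0.581) and 0.43 (SE 0.194, 0.137). BUB1B stood at 5.06, 8.46 and 6.95 CPM without a mold, from 10, 37 and 14 counts, and between 7.54 and 13.3 in the molded libraries.

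LMNB1 (ENSBTAG00000002882) encodes lamin B1, a protein of the nuclear envelope whose loss is known as a mark of senescent cells. Its 3 no-mold libraries stood at 16.7, 16.9 and 15.4 CPM. Unanchored middle stood at 9.92, 8.20 and 8.37 and anchored middle at 7.34, 8.98 and 10.7. Unanchored post stood at 13.1, 15.4 and 13.5 and anchored post at 15.6, 15.3 and 13.9. The low values were those of the middle regions, and unanchored post library 2 and anchored post library 1 lay within the range of no mold. Split reads entered values that hold 40.7% of its counts. LMNB1 fell by 0.54 on the log2 scale in the mean of the molded groups (SE 0.142, edgeR adjusted p = 0.0113). MKI67, in the same role group, stood at 11.1, 9.60 and 4.47 CPM without a mold and between 2.37 and 8.47 in the molded libraries. No-mold libraries 1 and 2 were the 2 highest of the 15 and library 3 among the low ones. The log2 fold change of MKI67 was -0.50, with a 95% interval from -1.12 to 0.11 (edgeR adjusted p = 0.267), so that a fall to less than 50% and a small rise were both within its error. TOP2A had 0.11 (edgeR adjusted p = 0.659) and HMGB2, a chromatin protein, -0.07 (0.754).

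Of the 10 genes of the centromere, spindle and cytokinesis, 1 fell. STMN1 (ENSBTAG00000013761) encodes stathmin, which takes microtubules apart, and values with split reads held 91.8% of its counts. It stood at 83.04, 115 and 117 CPM without a mold, between 70.0 and 81.4 in the 6 middle libraries and between 86.5 and 105 in the 6 post libraries. It fell by 0.31 in log2 units (SE 0.0949, adjusted p = 0.0256 by edgeR). The other 9 had log2 fold changes from -0.38 for CENPA (the histone of the centromere) to 0.44 for CENPE (a motor that moves chromosomes to the spindle equator), 5 of them above 0 and 4 below. KIF11 and KIF23, motors of spindle assembly and cytokinesis, had 0.29 and 0.36 (SE 0.186 and 0.214, edgeR adjusted p = 0.316 and 0.274). Counts of these genes were low in the shallow no-mold libraries. CENPE had 10 and 7 counts in libraries 1 and 3, and KIF23 had 16 and 15.

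The replication genes were close to level. Of 10, 1 rose and 9 did not pass, and their median log2 fold change was 0.06. MCM7 (ENSBTAG00000030965), a subunit of the MCM helicase that unwinds DNA, stood at 43.5, 47.5 and 47.1 CPM without a mold and between 49.2 and 65.7 in the 12 molded libraries. It was the gene of the 40 with all molded libraries above all no-mold ones, a pattern of 5.64% of all genes. MCM7 rose by 0.32 in log2 units (SE 0.0962, adjusted p = 0.0263 by edgeR). The other 5 subunits, MCM2 to MCM6, had log2 fold changes from -0.01 to 0.16 and did not pass (edgeR adjusted p = 0.35 to 0.981). PCNA, the sliding clamp of DNA polymerases, stood at 124, 145 and 121 CPM without a mold and between 104 and 168 in the molded libraries, with a log2 fold change of -0.04 (95% interval -0.23 to 0.16, edgeR adjusted p = 0.85). RRM1, RRM2 and TYMS, enzymes that make deoxynucleotides, had 0.17, -0.09 and -0.04 (edgeR adjusted p = 0.296, 0.605 and 0.846).

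Both genes of G1 control fell. CCND1 (ENSBTAG00000017514) encodes cyclin D1, which carries growth signals to the retinoblastoma protein. It stood at 588, 536 and 536 CPM without a mold. It ran from 374 to 449 in the 6 middle libraries, from 457 to 479 in unanchored post, and stood at 561, 453 and 532 in anchored post, where library 1 reached the no-mold range. CCND1 fell by 0.29 in log2 units (SE 0.0796, adjusted p = 0.0159 by edgeR). CDKN1A (ENSBTAG00000008353) encodes p21, an inhibitor of cyclin-dependent kinases and a target of p53. It stood at 42.5, 31.8 and 47.1 CPM without a mold, at 24.8, 21.8 and 14.8 in unanchored middle and at 20.7, 26.9 and 41.2 in unanchored post. It stood at 9.21, 36.3 and 19.9 in anchored middle and at 28.4, 11.0 and 19.6 in anchored post. Unanchored post library 3 and anchored middle library 2 lay within the no-mold range, so that the groups overlapped. CDKN1A fell by 0.84 in log2 units (SE 0.273, adjusted p = 0.0373 by edgeR).

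**Figure D3:**
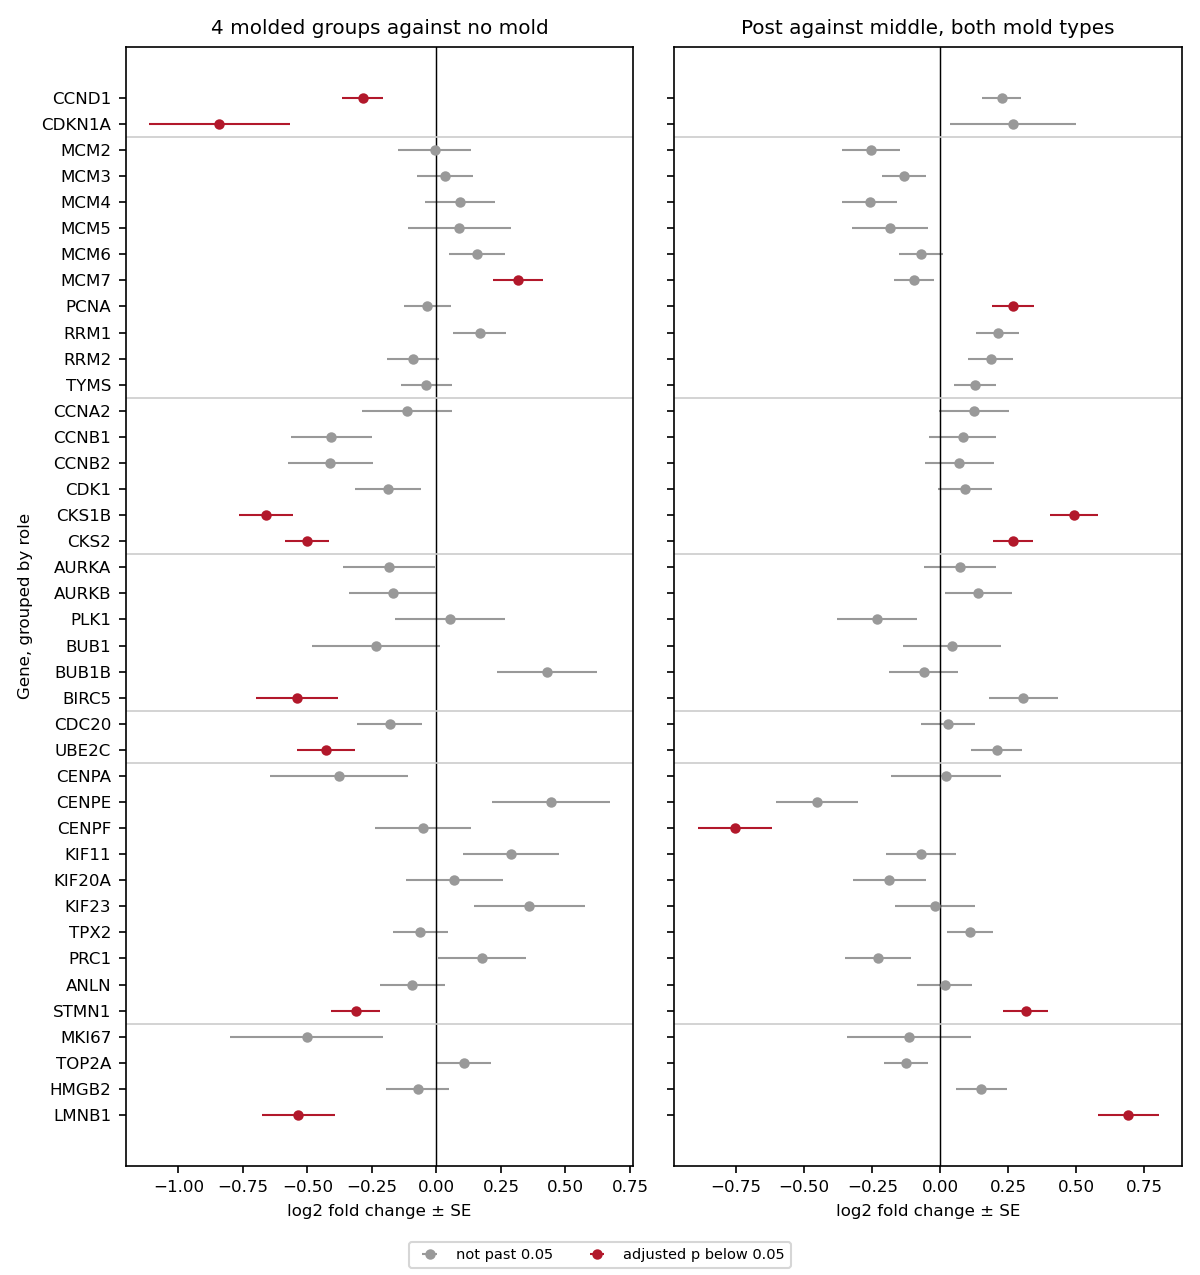
Log2 fold change with its standard error for each of the 40 genes, by role, in the 4 molded groups against no mold (left) and in post against middle over both mold types (right). Red points passed an adjusted p of 0.05: 9 genes on the left, of which MCM7 alone rose, and 6 on the right, of which CENPF alone fell.

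Calls for CKS1B and CKS2 held without any 1 of the 15 libraries, and the other 7 genes each lost the call without 1 library or another. The log2 fold changes of these 7 kept their sign in each of those fits. A lost call thus does not show that the difference came from 1 library. Without no-mold library 1 the adjusted p was 0.131 for CCND1, 0.134 for CDKN1A and 0.112 for MCM7. Without no-mold library 2 it was 0.0924 for LMNB1, 0.175 for BIRC5, 0.222 for STMN1, 0.118 for UBE2C and 0.0693 for MCM7. Without no-mold library 3 it was 0.195 for CDKN1A, 0.10 for BIRC5, 0.20 for STMN1, 0.0528 for CCND1 and 0.0858 for MCM7, and without unanchored post library 1 it was 0.0522 for CDKN1A. DESeq2 gave 0.124 for CDKN1A, and without a filter on low counts edgeR gave 0.0542 for STMN1 and 0.0623 for CCND1. Without the 3 shallowest libraries, which leaves 1 no-mold library, CKS1B and CKS2 still fell and these 7 did not pass. The groups also differed in other ways. Mitochondrial messenger RNA made up 1.52% ± 0.186 of counts without a mold, 2.21% ± 0.144 in unanchored middle, 2.06% ± 0.294 in anchored middle, 1.81% ± 0.251 in unanchored post and 1.76% ± 0.125 in anchored post (SD, n = 3). AFP, a gene of a fetal serum protein of the liver, ran the opposite way, with 91.3 ± 42.4 CPM in no mold, the lowest means in unanchored middle (32.8 ± 8.42) and anchored middle (47.3 ± 26.0), and 60.8 ± 19.2 and 61.8 ± 18.4 in unanchored and anchored post. Of the markers, 1 of 2 red blood cell genes tested was lower in the molded mean and 0 higher (median log2 fold change -1.84). Of the 12 fibrochondrocyte genes 5 were lower and 1 higher, and COL2A1, the collagen of cartilage, had a mean of 682 CPM without a mold and between 48.9 and 151 in the molded groups. The part of these values in the result was not tested.

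Taken one group at a time, the 2 middle groups were farthest from no mold. In unanchored middle, 7 of the 40 genes fell and 1 rose against no mold (20%, where 14.8% of all genes were called, 7.56% higher and 7.2% lower), and in anchored middle likewise 7 fell and 1 rose (20%, where 13.3% of all genes were, 7.11% higher and 6.2% lower). In unanchored post 1 fell (2.5%, where 9.02% of all genes were called, 4.93% higher and 4.09% lower) and in anchored post 2 fell (5%, where 5.56% were, 2.92% higher and 2.64% lower). All 4 comparisons use the same 3 no-mold libraries. CKS1B fell by 0.83 in unanchored middle, 0.99 in anchored middle, 0.40 in unanchored post and 0.43 in anchored post (edgeR adjusted p = 0.000182, 4.37e-05, 0.0484 and 0.0464). CKS2 fell by 0.66, 0.61 and 0.42 in unanchored middle, anchored middle and anchored post (edgeR adjusted p = 0.000291, 0.000732 and 0.0219), and in unanchored post it had a log2 fold change of -0.31 (adjusted p = 0.0687 by edgeR). LMNB1 fell by 0.89 and 0.87 in the 2 middle groups (edgeR adjusted p = 0.00149 and 0.00202). UBE2C, BIRC5, STMN1 and CCND1 also fell in both middle groups, by 0.54, 0.69, 0.50 and 0.37 in unanchored and by 0.53, 0.69, 0.44 and 0.43 in anchored middle. MCM7 rose by 0.36 and 0.37 there (edgeR adjusted p = 0.037 and 0.0329). CDKN1A, called in the molded mean, passed in none of the 4 comparisons. Its log2 fold changes were -0.93 in unanchored middle, -1.02 in anchored middle, -0.41 in unanchored post and -1.01 in anchored post.

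In unanchored middle, CKS1B, CKS2 and LMNB1 kept their calls without any 1 of the 15 libraries, and in anchored middle these 3 and CCND1 did. The other calls in unanchored middle ended without no-mold library 1 (CCND1 0.0807, MCM7 0.115), 2 (BIRC5 0.103, UBE2C 0.0701, MCM7 0.0708) or 3 (BIRC5 0.0662, STMN1 0.0511, MCM7 0.0927), or without unanchored middle library 1 (MCM7 0.139), 2 (UBE2C 0.0694, CCND1 0.103, MCM7 0.0769) or 3 (BIRC5 0.0726), all as edgeR adjusted p. In anchored middle they ended without no-mold library 1 (MCM7 0.0964), 2 (BIRC5 0.116, STMN1 0.104, UBE2C 0.0885, MCM7 0.0664) or 3 (BIRC5 0.0757, STMN1 0.103, MCM7 0.0819), or without anchored middle library 1 (MCM7 0.10) or 3 (BIRC5 0.088, MCM7 0.162). The MCM7 calls also ended with DESeq2 (0.0619 in unanchored and 0.053 in anchored middle), and so did those of CKS1B at the posts (0.0706 in unanchored and 0.0648 in anchored post). Fitting only anchored middle and no mold ended the MCM7 call too (edgeR adjusted p = 0.0907). Without the 3 shallowest libraries, which leaves 1 no-mold library, CCND1 had a log2 fold change of -0.32 in anchored middle. At the posts, the CKS1B call ended without any 1 of 10 libraries in unanchored post (adjusted p = 0.0502 to 0.211) and of 11 in anchored post (0.0501 to 0.217), no-mold libraries 2 and 3 in both cases, and the CKS2 call in anchored post without no-mold library 2 (0.147) or 3 (0.0874) or anchored post library 1 (0.058) or 3 (0.0711).

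**Figure D4:**
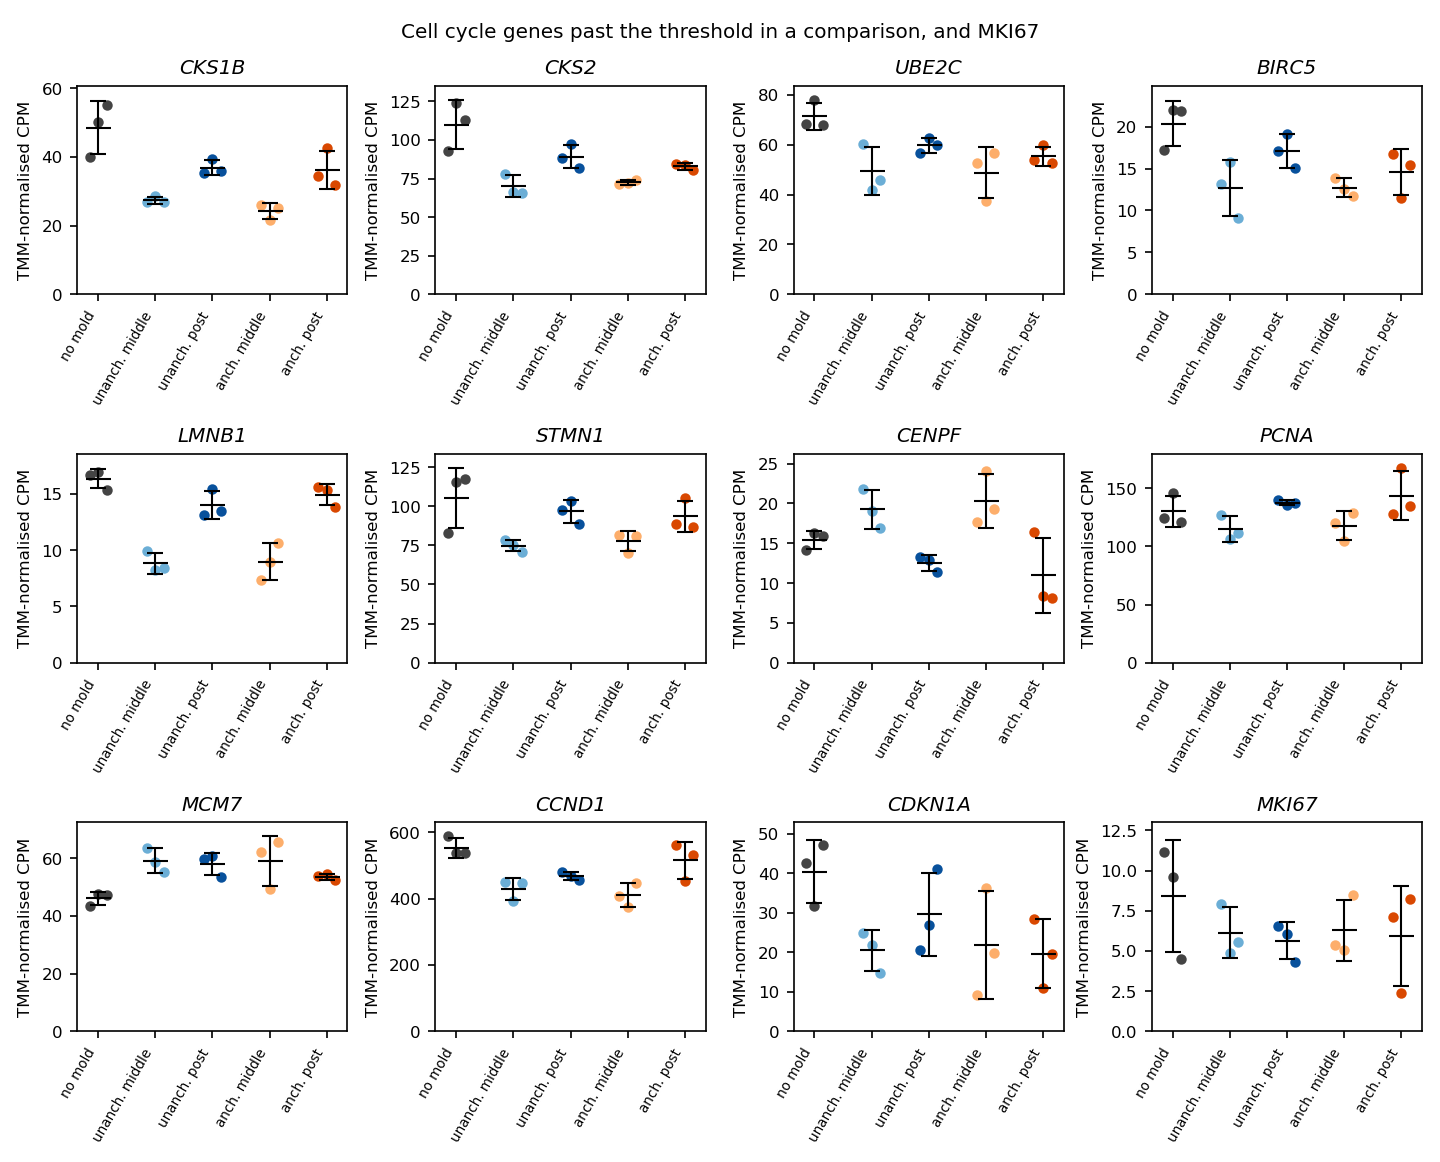
TMM-normalised CPM of 12 cell cycle genes in the 5 groups. Points are libraries, horizontal bars are means and whiskers are SDs (n = 3), and every axis starts at 0. CKS1B, CKS2, LMNB1 and STMN1 are lower in both middle groups than in both post groups, CENPF is higher there, and CDKN1A and MKI67 spread widely within groups.

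Post and middle regions were then compared, to ask how 2 parts of the same kind of tissue differed. Over both mold types, 5 of the 40 genes were higher and 1 was lower at the post (15%, where 8.51% of all genes were called, 3.32% higher and 5.19% lower). The median log2 fold change was 0.06 over the 40 genes and -0.01 over all genes. LMNB1, CKS1B, STMN1, CKS2 and PCNA rose at the post, and CENPF fell there. The post and middle libraries of 7 genes did not overlap, 5 with all 6 post libraries higher (CCND1, CKS1B, CKS2, STMN1 and LMNB1, where 1.88% of all genes had that pattern) and 2 with all 6 lower (CENPF and TOP2A, where 2.3% had).

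LMNB1 rose by 0.69 in log2 units at the post (SE 0.112, adjusted p = 0.000418 by edgeR), from 7.34 to 10.7 CPM in the 6 middle libraries to 13.1 to 15.6 in the 6 post libraries. CKS1B rose by 0.49 (SE 0.0879, edgeR adjusted p = 0.0012), CKS2 by 0.27 (SE 0.0747, 0.0275) and STMN1 by 0.31 (SE 0.081, 0.0179). Of the 12 fibrochondrocyte markers 8 were lower at the post and 1 higher, and the part of this in the result was not tested. PCNA rose by 0.27 (SE 0.078, edgeR adjusted p = 0.0339). Its middle libraries stood between 104 and 129 CPM and its post libraries between 128 and 168, so that these overlapped. CCND1, with a log2 fold change of 0.23, lay at the threshold (SE 0.0715, edgeR adjusted p = 0.0502) and passed with DESeq2 (0.0143).

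CENPF (ENSBTAG00000024449) encodes a large kinetochore protein that is made in G2 and mitosis, and values with split reads held 53.1% of its counts. It stood at 21.8, 19.1 and 16.9 CPM in unanchored middle and at 17.6, 24.1 and 19.3 in anchored middle. It stood at 13.3, 12.9 and 11.4 in unanchored post and at 16.4, 8.402 and 8.11 in anchored post, and at 14.2, 16.2 and 15.9 without a mold. Every middle library was above every post library, and the no-mold libraries were below all 6 middle libraries and above 5 of the 6 post libraries. CENPF fell by 0.76 in log2 units at the post (SE 0.137, adjusted p = 0.00135 by edgeR), the opposite direction to LMNB1 and CKS1B. CENPE, a motor of the kinetochore, had -0.45 and did not pass (SE 0.15, edgeR adjusted p = 0.0611). The 6 MCM subunits all had log2 fold changes below 0, from -0.26 to -0.07, and 0 of them passed (edgeR adjusted p = 0.113 to 0.655), while RRM1, RRM2 and TYMS had 0.21, 0.18 and 0.13 (0.101, 0.173 and 0.344). MKI67 had -0.11 (95% interval -0.58 to 0.35, edgeR adjusted p = 0.806), TOP2A -0.13 (-0.29 to 0.04, 0.356), CDK1 0.09 (-0.11 to 0.30, 0.63) and CDKN1A 0.27 (-0.21 to 0.75, 0.527).

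Within anchored tissue LMNB1 rose by 0.73, CKS1B rose by 0.55 and CENPF fell by 0.88 from middle to post (SE 0.159, 0.126 and 0.198, edgeR adjusted p = 0.0162, 0.0206 and 0.0181), and these 3 were 7.5% of the 40 genes, where 1.92% of all genes were called, 0.254% higher and 1.66% lower. Within unanchored tissue 0 of the 40 passed by edgeR and 0 by DESeq2, where 0.448% of all genes were called by edgeR, and 9 (22.5%) had an unadjusted p below 0.05, as did 13.9% of all genes. Fitting only the 2 unanchored groups called 4 of the 40 (CENPF, CKS1B, LMNB1 and STMN1), and edgeR without a filter on low counts called 3 (CDKN1A, CENPF and LMNB1). The shares of all genes called in these 2 fits are not given here, so that the counts cannot be set against them. In the main fit of all 15 libraries, LMNB1 had a log2 fold change of 0.65 from unanchored middle to post, CKS1B 0.43 and CENPF -0.63 (edgeR adjusted p = 0.06, 0.109 and 0.138). The difference between mold types was tested as an interaction and did not pass for LMNB1 (0.07, SE 0.225), CKS1B (0.13, SE 0.176) or CENPF (-0.26, SE 0.276), with edgeR adjusted p = 1.00 for each.

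Calls for LMNB1, CKS1B and CENPF over both mold types held without any 1 of the 15 libraries. The STMN1 call ended without anchored post library 2 (edgeR adjusted p = 0.0522), the CKS2 call without unanchored post library 2, unanchored middle library 2 or 3, anchored post library 1 or anchored middle library 3 (0.0528 to 0.0888), and the PCNA call without any of the 3 unanchored post libraries, unanchored middle library 2 or 3, anchored post library 2 or anchored middle library 2 (0.0558 to 0.11). In anchored tissue alone the calls ended without anchored post library 1 (LMNB1 0.0569), 2 (CENPF 0.0739, CKS1B 0.104) or 3 (CENPF 0.16) or anchored middle library 1 (LMNB1 0.102) or 3 (CENPF 0.0624, CKS1B 0.0734), and all 3 ended when only the 2 groups were fitted (0.0823 to 0.101).

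Anchoring itself went with no call among the cell cycle genes. Anchored against unanchored, 0 of the 40 passed in the middle, at the post, averaged over regions or in the interaction, by edgeR or by DESeq2, and 0% of all genes passed by edgeR in each of these comparisons. At an unadjusted p below 0.05 there were 0, 2, 2 and 0 of the 40, where 3.09%, 3.84%, 5.48% and 1.88% of all genes were. Averaged over regions the log2 fold changes of the 40 genes ran from -0.34 for CDKN1A to 0.22 for MCM3, with a median standard error of 0.109. MKI67 had 0.09 (SE 0.227), PCNA 0.05 (SE 0.078), CDK1 0.08 (SE 0.0989), CCND1 0.04 (SE 0.0715) and TOP2A -0.03 (SE 0.0796).

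Other genes of the cell cycle, 145 of 146 found in the table and 134 tested, were described by list. Against no mold, 2 of 42 other G1 and S phase genes rose and 2 fell in the mean of the molded groups. Of 53 other G2 and mitosis genes 4 rose and 2 fell. Of 11 CDK inhibitors and retinoblastoma family genes 2 rose and 0 fell. Of 9 genes in a list of cyclins and kinases 0 rose and 3 fell. The cyclins of this list were not all of the D type, and 1 of the 3 genes that fell encodes a cyclin of another type. Of 19 p53 targets 1 rose and 6 fell. The shares called were 9.52%, 11.3%, 18.2%, 33.3% and 36.8%, where 16% of all genes were called (8.04% higher and 7.91% lower), so that the first 2 lists were below that share. The medians were 0.06, -0.19, 0.06, -0.14 and -0.11, against 0.00 for all genes. SPC24, a subunit of the kinetochore complex that grips microtubules, fell by 0.87 (SE 0.143, edgeR adjusted p = 0.00022), from 31.5 ± 1.52 CPM to between 15.0 ± 1.94 and 20.2 ± 6.89 (SD, n = 3). H2AZ1, a histone variant, fell by 0.39. SMC2 (condensin) and HMMR (a spindle protein) rose by 0.61 and 0.65. DUT and SLBP, which act in nucleotide supply and histone messenger RNA, fell by 0.35 and 0.32, and TIPIN, a replication fork protein, rose by 0.43. Values with split reads held 66.1% of the counts of DUT, 86.5% of SLBP, 49.6% of H2AZ1 and 47.5% of HMMR. Levels of these genes are less certain.

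In the mean of the molded groups 2 CDK inhibitors of the list rose. CDKN1C (p57) had 81.9 ± 9.36 CPM without a mold, 159.5 ± 38.0 in unanchored middle, 185 ± 21.1 in anchored middle, 108 ± 29.5 in unanchored post and 106 ± 15.1 in anchored post (SD, n = 3). It rose by 0.73 (SE 0.153, edgeR adjusted p = 0.002). CDKN1B (p27), which is known to hold resting cells in G1, rose by 0.41 (SE 0.0961, edgeR adjusted p = 0.00508). CDKN2A, the locus of p16, fell by 0.55 in anchored middle against no mold (SE 0.134, adjusted p = 0.00796 by edgeR) but not without the 3 shallowest libraries (0.117). In the mean of the molded groups it had -0.22 and did not pass (edgeR adjusted p = 0.156). Values with split reads held 92.4% of the counts of CDKN2A, so that its level is less certain. CCND3 and CDK6, a D-type cyclin and a kinase it activates, fell by 0.35 and 0.50 (edgeR adjusted p = 0.00219 and 0.014). Among p53 targets SESN1, a stress-induced inhibitor of growth signalling, rose by 0.92 (SE 0.123, edgeR adjusted p = 2.2e-05), from 23.5 ± 4.1 CPM to between 37.4 ± 6.23 and 55.3 ± 2.21. The death genes BAX and BBC3 fell by 0.63 and 0.60 (edgeR adjusted p = 0.00256 and 0.0342). Calls for SPC24, CDKN1C, CCND3, SESN1 and BAX held without any 1 library, and those of CDKN1C (0.0846), CCND3 (0.312) and BAX (0.079) ended without the 3 shallowest. Calls for HMMR (0.857), SMC2 (0.455), TIPIN (0.671), SLBP (0.239), CDK6 (0.0941) and BBC3 (0.283) ended there too, and there the log2 fold changes were 0.12 for HMMR, 0.33 for SMC2, 0.16 for TIPIN and -0.21 for CCND3. Without no-mold library 2, the log2 fold change of HMMR was 2.05 times and that of TIPIN 1.70 times the value with all libraries, and without no-mold library 3, SLBP was -0.21. Those of DUT (0.0642 and 0.0508) and CDKN1B (0.0587 and 0.0612) ended without no-mold library 2 or 3, CDK6 without 1 or 2 (0.116 and 0.0972), SLBP (0.175) and H2AZ1 (0.0668) without 3, SMC2 (0.052 and 0.087) and TIPIN (0.124 and 0.191) without 1 or 3, BBC3 without any of the 3 (0.0815 to 0.149), and HMMR without any 1 of 8 libraries (0.051 to 0.274).

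**Figure D5:**
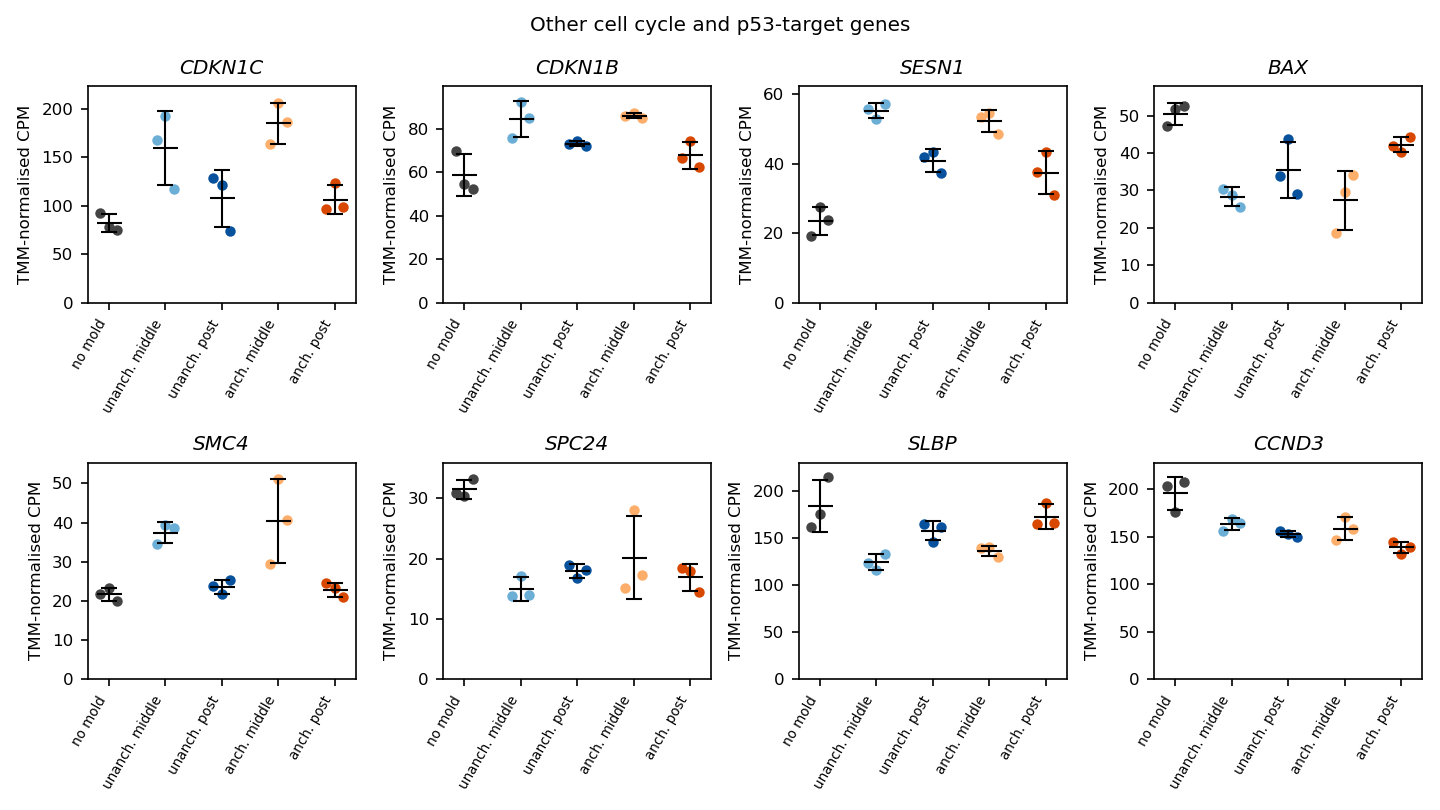
TMM-normalised CPM of 8 other cell cycle and p53-target genes in the 5 groups. Points are libraries, horizontal bars are means and whiskers are SDs (n = 3), and every axis starts at 0. CDKN1C, CDKN1B, SESN1 and SMC4 are highest in the middle groups, and BAX, SPC24, SLBP and CCND3 are highest without a mold.

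At the post, over both mold types, 3 of 42 other G1 and S phase genes rose and 0 fell, and 3 of 53 other G2 and mitosis genes rose and 2 fell. Of 11 inhibitors and retinoblastoma family genes 1 rose and 2 fell. Of the 9 genes in the list of cyclins and kinases 0 passed, and of 19 p53 targets 2 rose and 1 fell. The shares called were 7.14%, 9.43%, 27.3%, 0% and 15.8%, where 8.51% of all genes were called, and those of the first 2 lists were near that share. The medians were 0.03, -0.02, -0.07, 0.02 and 0.06, against -0.01 for all genes. SMC4, the condensin subunit that packs chromosomes with SMC2, fell by 0.72 (SE 0.102, edgeR adjusted p = 9.07e-05), from 37.4 ± 2.61 and 40.4 ± 10.8 CPM in unanchored and anchored middle to 23.6 ± 1.81 and 22.9 ± 1.78 at the posts, near the 21.6 ± 1.74 of no mold (SD, n = 3). KNL1, another large kinetochore protein, fell by 0.59 (SE 0.181, edgeR adjusted p = 0.0433). SLBP and DUT rose by 0.34 and 0.30, and MAD2L1, a spindle checkpoint gene, and MELK, a mitotic kinase gene, by 0.48 and 0.43. Values with split reads held 91.0% of the counts of MAD2L1, 86.5% of SLBP and 66.1% of DUT. CDKN1C fell by 0.68 (SE 0.119, edgeR adjusted p = 0.000935) and CDKN1B by 0.28, while CDKN2A rose by 0.36. BAX and GADD45A, a growth arrest gene, rose by 0.48 and 0.26 and SESN1 fell by 0.46. The KNL1, MAD2L1, MELK and CDKN1B calls each ended without any 1 of 8, 6, 6 and 3 libraries (edgeR adjusted p up to 0.118, 0.119, 0.125 and 0.0885), those of MELK and KNL1 ended with DESeq2 (0.0611 and 0.0683), and the other named calls at the post held without any 1 of the 15.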

How the data were processed

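The deposited table holds 38001 bovine gene rows and 92 ERCC spike-in rows, with 2 columns per library. The authors deposited CPM, the count scaled to the column total (recomputed with a largest difference of 5.1e-11). They also deposited expected counts: 13.5% to 16.3% of a library's nonzero values are not whole (tolerance 1e-06), as when a read is shared among genes. Per the labels' protocols, an oligo-dT primer carried both a library barcode and a unique molecular identifier (UMI), and tagmentation followed. The submitters' processing notes name STAR 2.7, Subread 2.1.1 with featureCounts, SAMtools 1.21 and MultiQC 1.33. For the build, the annotation, the counting settings and the use of UMIs, the answer is not given in the sources used here. Precision is overstated if PCR copies were counted.

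Spike-in rows (18 to 70 counts per library) were left out, and expected counts were rounded. Genes were kept by filterByExpr (count of 10, total of 15), scaled by TMM (factors 0.934 to 1.05) and fitted with edgeR 4.0.16 in R 4.3.3, as 1 quasi-likelihood model of all 15 libraries in which each group has its mean. There were 12 two-sided contrasts, each adjusted by Benjamini-Hochberg over 11834 genes with a threshold of 0.05. Standard errors are the log2 fold change divided by the root of F, and intervals are 95%. The medians per library use log2(CPM + 0.5). Alternatives were DESeq2 1.42.0 as a test and for size factors, no filter, a replicate block, fits of the compared groups, leaving out each library and leaving out the 3 shallowest. The pairs of libraries of a group differed by 2.6 to 13.0 in chi-square per degree of freedom, and pairs of different groups by 1.87 to 20.9. The lowest value was that of unanchored middle library 2 and anchored middle library 3. No pair was taken as a repeated deposit.

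The members and lists were chosen with earlier results of these data known. Genes named are the members that passed in any contrast, with MKI67, TOP2A, CDK1, PCNA, CCND1 and CDKN1A in any case, and up to 2 rises and 2 falls per other list; 1 gene of these lists is counted but not reported here. Other members named, those just short of the threshold or of a shared complex, were chosen after their values were seen. No sequence is shown, since none was used here.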

Additional observations from a re-analysis of the deposited data

How the results depend on the processing

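The numbers of the 40 genes called were recounted under each alternative. The shares of all genes called under each alternative, or without each library, are not given here. A changed count is thus no result about these 40 genes as against other genes. Without the 3 shallowest libraries, 3 genes were called for the molded mean in place of 9, 3 for anchored middle in place of 8, 0 for unanchored post in place of 1 and 1 for anchored post in place of 2, each against no mold, and 1 for unanchored post against middle in place of 0. For unanchored post against no mold the count was 0 with DESeq2, 0 without a filter and 0 with the replicate block. For anchored post against no mold it was 1 with DESeq2 and 1 with the replicate block. Fitting the compared groups gave 0 for anchored post against anchored middle in place of 3 and 4 for unanchored post against unanchored middle in place of 0. Without a filter the latter was 3, and anchored against unanchored post was 1 in place of 0 (CDKN1A). The other counts stayed within 1.5 times of the main one.

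Leaving out 1 library at a time, the count ran from 4 (without no-mold library 3) to 10 for the molded mean, with 5 without no-mold library 2. It ran from 5 to 10 for unanchored middle and 5 to 10 for anchored middle (lowest without no-mold library 3 in both), 0 to 2 for unanchored post and 0 to 4 for anchored post, each against no mold. It ran from 1 to 3 for anchored post against middle, 0 to 1 for unanchored post against middle, 4 to 7 for post against middle over both mold types, and was 0 throughout for the 4 comparisons of anchoring. A library left alone in a group is assumed to vary like the others.

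Replicate numbers were not taken to pair the libraries, since the labels tie no number to an animal or batch and not every pair correlated: same-numbered libraries of different groups correlated at -0.17 to 0.27 in their deviations from group means and differently numbered ones at -0.23 to 0.20, while 10 of 15 correlated best with one of their own number, which 4 of each library's 12 possible partners had, a hint from the data and not from the design. With the replicate block the molded mean kept 9 calls, and post against middle over both mold types had 8 in place of 6 (CCND1 and CENPE were added).

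Values that changed sign were small and not called. For the molded mean, TOP2A was -0.095 without the 3 shallowest libraries and PCNA 0.011 without a filter. Leaving out 1 library, CDK1 ran from -0.28 to 0.052 and PCNA from -0.084 to 0.065 (both highest without no-mold library 2), and for post against middle MKI67 ran from -0.30 to 0.056, above 0 without unanchored middle library 1, anchored post library 2 or anchored middle library 3. The cause of these changes was not tested. Depth limited CENPE, CENPA, BUB1, BUB1B and MKI67 most, with counts of 7 to 10 in their lowest library.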
